A study of Mus musculus with 5 samples.

Results

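Kit ligand and its receptor Kit were followed through the cell types of the fetal mouse lung. They are 2 of the 32285 genes of the count tables, found by their symbols (Kitl and Kit), each of which names a single row. The pair was chosen by its measured levels in these libraries, namely its pattern over cell types and its difference between genotypes. The values of Kitl and Kit are therefore given as descriptions, with no test.

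The data were single-cell RNA counts of dissociated whole lungs of mouse embryos at E18.5, shortly before birth. Per the labels, 2 embryos were Zswim8+/- (Het1 and Het2) and 3 were Zswim8-/- (KO1, KO2 and KO3), with 1 library for each embryo, so p-values below measure the spread between embryos. Both groups carry a mutant allele of Zswim8, and no wild-type lung was compared here. The strain and the kind of allele are not given in the sources used here. Zswim8 encodes the substrate receptor of a ubiquitin ligase that removes Argonaute proteins, and with them certain microRNAs, when a trigger transcript pairs with the microRNA.

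Kit is a receptor tyrosine kinase of the platelet-derived growth factor receptor class. Its ligand, Kitl (stem cell factor), is made as a membrane protein that proteases can shed from the cell, and binding of the ligand pairs the receptors and starts phosphorylation of adaptors and kinases inside the cell. The pathway is best known for the survival of mast cells, blood progenitors, melanocytes and germ cells. In the lung, Kit is a marker of general capillary endothelial cells, the progenitors of the capillary bed. Aerocytes, the thin capillary cells of the gas-exchange surface, are known for high Kitl. Membrane-retained and shed Kitl arise by alternative splicing, and counts from the 3′ end of transcripts do not tell them apart.

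The libraries held 56608582 to 93708304 unique molecular identifiers (UMIs, each standing for a captured transcript), and 3051 to 4634 cells per library were kept. Clusters were named from marker genes, and a name such as aerocyte-like means only that those markers were found. Unnamed clusters held 23.3% to 32.0% of the kept cells of a library. Between 0 and 7 barcodes of kept cells were shared by any pair of libraries. By their X- and Y-linked counts, Het1, Het2 and KO3 were male and KO1 and KO2 were female. Zswim8 itself had 36.7 and 38.5 CPM (UMIs of the gene scaled to 1e6 UMIs of the cells summed) in the Het libraries and 38.4, 38.9 and 41.2 CPM in the KO libraries. Since counts come from the 3′ end and the deleted part is not given in the sources used here, this level does not check the labels.

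Kitl (ENSMUSG00000019966) lies on the + strand of chromosome 10, from 100015630 to 100100416 (GRCm38, GENCODE M21), with 10 exons in the transcript that has the longest 3′ UTR. Kit (ENSMUSG00000005672) lies on the + strand of chromosome 5, from 75574916 to 75656722, with 21 exons in the corresponding transcript. Because the Zswim8 protein acts on microRNAs, both 3′ UTRs were searched for 7-base matches to the seeds of 7 microRNAs, of which miR-221 and miR-222 are known for pairing with Kit. No microRNA was measured in these libraries. The mature sequences, from RefSeq (GRCm38.p6), are given 5′ to 3′ with the seed (bases 2 to 8) in capitals, and miR-322-5p shares its seed with miR-16-5p, as miR-221-3p does with miR-222-3p.
mmu-miR-322-5p: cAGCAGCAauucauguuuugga
mmu-miR-16-5p: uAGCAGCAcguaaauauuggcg
mmu-miR-503-5p: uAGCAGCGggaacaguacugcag
mmu-miR-7a-5p: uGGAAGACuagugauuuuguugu
mmu-miR-335-3p: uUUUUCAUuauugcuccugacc
mmu-miR-221-3p: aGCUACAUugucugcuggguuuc
mmu-miR-222-3p: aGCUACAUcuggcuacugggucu

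The 2177-base 3′ UTR of Kit held 1 match to the seed shared by miR-322-5p and miR-16-5p (TGCTGCT) and 2 matches to the seed shared by miR-221-3p and miR-222-3p (ATGTAGC), each of the latter followed by an A. The 4435-base 3′ UTR of Kitl held no TGCTGCT, 1 ATGTAGC and 3 matches to the miR-335-3p seed (ATGAAAA). Neither UTR held a match to miR-503-5p (CGCTGCT) or miR-7a-5p (GTCTTCC). These are the matches with 8 bases on either side, on the sense strand, with the match in capitals.
Kit chr5:75654571-75654577 (exon 21): acaggcttTGCTGCTgtctccga
Kit chr5:75654992-75654998 (exon 21): ggagatatATGTAGCaagactag
Kit chr5:75656523-75656529 (exon 21): atattgaaATGTAGCaataatgt
Kitl chr10:100097193-100097199 (exon 10): agagctttATGTAGCtgtgcatg
Kitl chr10:100097988-100097994 (exon 10): ttaggcttATGAAAAtactattt
Kitl chr10:100098477-100098483 (exon 10): atgttttaATGAAAAtgatctga
Kitl chr10:100099418-100099424 (exon 10): tttgaggaATGAAAAgcggtcgt
A single match is frequent in UTRs of this length. TGCTGCT was present in 20.3%, ATGAAAA in 19.8% and ATGTAGC in 9.46% of 20997 mouse 3′ UTRs, and TGCTGCT in 30.6% of those within 25% of the length of the Kit UTR. ATGTAGC was present in 14.9% of UTRs of the length of Kit and in 28.3% of those of the length of Kitl, and ATGAAAA in 50.4% of the latter. At least 2 ATGTAGC, as in Kit, were held by 1.4% of UTRs of its length, and at least 3 ATGAAAA, as in Kitl, by 5.17% of UTRs of the length of Kitl.

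Kitl was highest in aerocyte-like cells and, below them, in the other capillary cells. In aerocyte-like cells its level was 1365 and 1508 CPM in Het1 and Het2, against 911, 898 and 524 CPM in KO1, KO2 and KO3. General capillary-like cells held 370.1 and 361 CPM in the Het libraries and 235, 182 and 227 CPM in the KO libraries. Cycling endothelial cells held 329 and 414 CPM against 274, 198 and 308 CPM. In all 3 endothelial types, each KO library lay below both Het libraries. The ranges of cycling endothelial and general capillary-like cells overlapped, so these levels do not differ beyond their spread, whereas the lowest aerocyte-like value, 524 CPM, lay above the highest value of any other named type, 414 CPM.

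**Figure D1:**
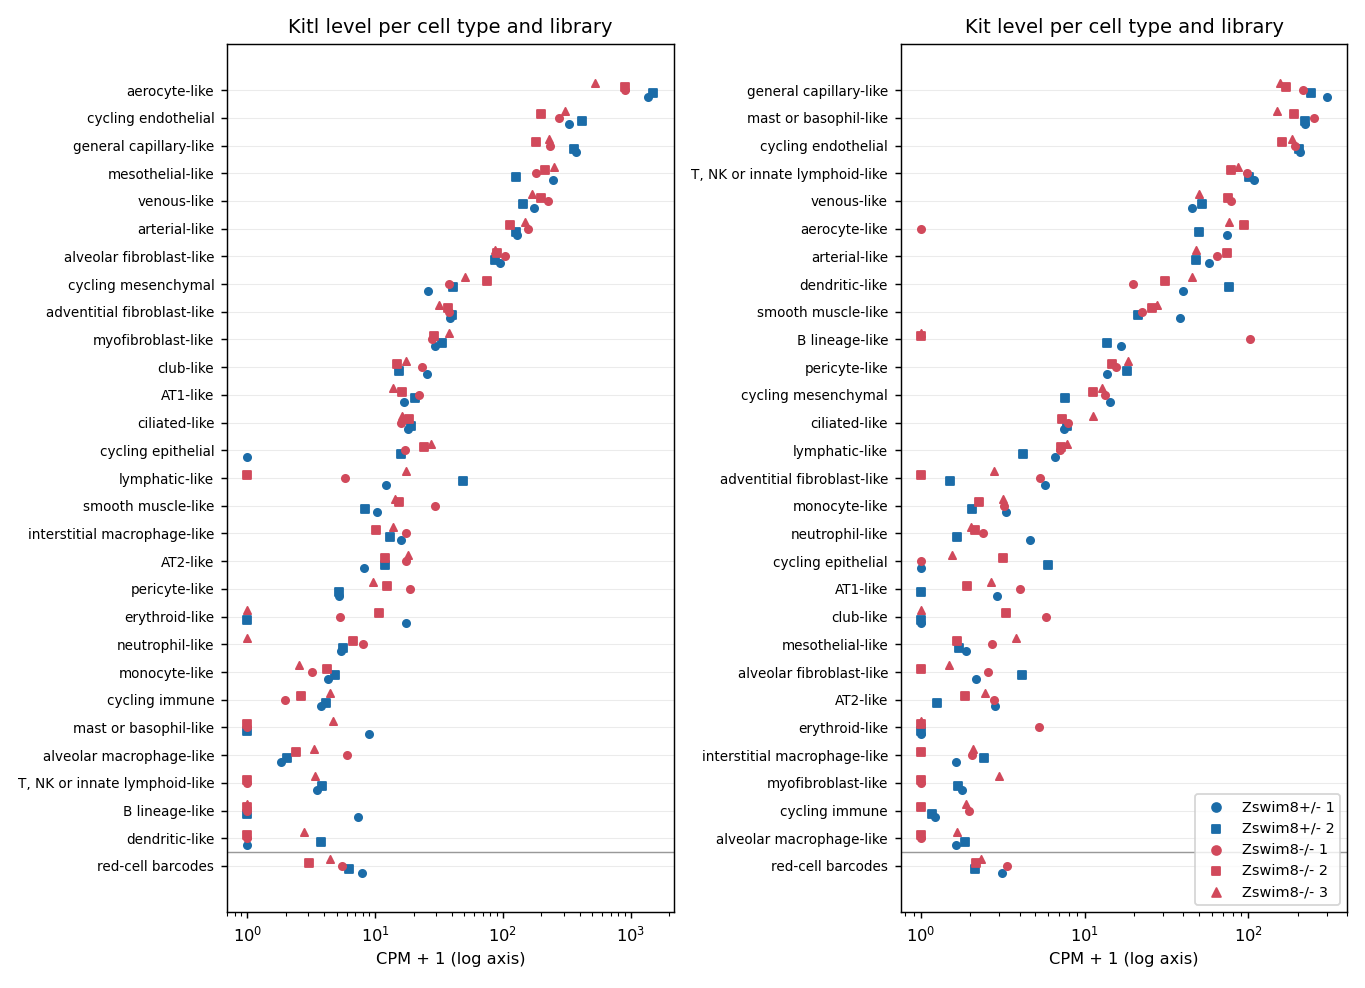
Level of Kitl (left) and Kit (right) in each named cell type, in CPM + 1 on a log axis, with 1 point per library (blue, Zswim8+/-; red, Zswim8-/-) and types ordered by their mean over the libraries. Kitl runs from 1508 CPM in aerocyte-like cells to 0 in several blood cell types, and Kit peaks in general capillary-like, cycling endothelial and mast or basophil-like cells. Red-cell barcodes, below the line, are a rough guide to free RNA, since haemoglobin makes up more than 50% of their UMIs and lowers the CPM of other genes.

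Outside the capillaries, Kitl was found in the larger vessels, the pleural lining and the fibroblasts. The genotype groups overlapped in mesothelial-like, venous-like, arterial-like and alveolar fibroblast-like cells. Mesothelial-like cells, which line the lung surface, held 246 and 126 CPM in the Het libraries and 182, 213 and 249 CPM in the KO libraries. Venous-like cells held 174 and 143 CPM against 223, 198 and 168 CPM. Arterial-like cells held 129 and 126 CPM against 155, 113 and 148 CPM. The ranges of mesothelial-like, venous-like and arterial-like cells overlapped one another, and that of mesothelial-like cells overlapped that of general capillary-like cells. Alveolar fibroblast-like cells, the lipid-storing fibroblasts beside the alveolar epithelium, followed with 94.5 and 86.6 CPM in the Het libraries and 103, 89.7 and 85.6 CPM in the KO libraries, all under the lowest arterial-like value. Adventitial fibroblast-like cells, found around vessels and airways, had 37.5 and 38.7 CPM in Het and 37.2, 36.4 and 30.7 CPM in KO, without overlap by a narrow margin, and myofibroblast-like cells 27.1 to 37.0 CPM.

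The epithelium held little Kitl. In AT1-like cells, the flat cells of the alveolar wall, the level was 15.9 and 19.4 CPM in the Het libraries and 21.1, 15.4 and 12.9 CPM in the KO libraries. In AT2-like cells, which make surfactant, it was 7.18 and 11.02 CPM against 16.4, 10.9 and 17.1 CPM. The groups overlapped in both. Red-cell barcodes, which should hold no Kitl of their own, had 6.88 and 5.21 CPM in the Het libraries and 4.51, 2.06 and 3.47 CPM in the KO libraries. Haemoglobin made up more than 50% of their UMIs, which lowers the CPM of other genes, so they are only a rough guide to free RNA. Monocyte-like, dendritic-like, lymphoid-like and mast or basophil-like cells had 0 to 11 Kitl UMIs per library, at 0 to 7.93 CPM, a level near that of red-cell barcodes.

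In the contractile cells, low levels of Kitl lay in the other order. Smooth muscle-like cells held 9.43 and 7.33 CPM in the Het libraries and 28.5, 14.4 and 13.3 CPM in the KO libraries, from 15 and 8 UMIs against 47, 18 and 21. Pericyte-like cells held 4.21 and 4.27 CPM against 17.8, 11.4 and 8.63 CPM, from 2 and 1 UMIs against 11, 5 and 4. The KO libraries lay above both Het libraries in each of these types, on few UMIs. Taken as whole types, the Het levels of both lay near those of red-cell barcodes, 6.88 and 5.21 CPM. At that level they are not told apart from free RNA. The pericyte name rested on 3 markers. A cluster of 244 cells with endothelial and mesenchymal markers, led by the pericyte marker Higd1b, had no lineage name. Cells without a lineage name, most of them in that cluster, held Kitl at 57.2 to 233 CPM (808 UMIs) and Kit at 12.7 to 85.9 CPM (428 UMIs). The pericyte-like values may therefore not cover all pericytes. In smooth muscle-like cells most Kitl UMIs came from the cluster led by Cnn1, Actg2 and Sbspon, contractile smooth muscle genes among them. Its level was 43.7 and 39.3 CPM in Het and 135, 96.9 and 50.4 CPM in KO, above red-cell barcodes in every library and without overlap. That cluster, taken up after the clusters were seen, had 71 cells over all libraries. Its Het levels rest on no more than the 15 and 8 UMIs of the whole type. Among the 18 named types with at least 20 cells in every library, Kitl of all KO libraries lay below both Het libraries in 4 types, above in 3 and overlapped in 11. In the summed cells, 30.4% to 46.7% of all genes did not overlap. That share was not counted for each type, so the count of types is not read as particular to Kitl. A level of at least 10 CPM was reached in 5 of the 7 types without overlap, the other two being monocyte-like and alveolar macrophage-like cells.

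Summed over all named endothelial cells, Kitl was 448 and 452 CPM in Het1 and Het2 and 178, 170.3 and 167 CPM in KO1, KO2 and KO3 (450.1 ± 2.68 in Het, SD, n = 2, and 172 ± 5.88 in KO, SD, n = 3; CPM on the scaled library sizes of the edgeR fit). The groups did not overlap, as was so for 38.7% of the 11630 genes in that comparison, and the log2 fold change was -1.39. Among the male embryos alone, KO3 stood at 167 CPM beside Het1 and Het2. The make-up of the endothelium moved with this sum. Aerocyte-like cells were 92 of 421 named endothelial cells in Het1 and 61 of 297 in Het2, 21.9% and 20.5%, but 2 of 281, 4 of 291 and 6 of 291 in the KO libraries, 0.712%, 1.37% and 2.06%. Their share of the endothelial Kitl UMIs was 48.1% and 47.3% in the Het libraries and 1.75%, 4.17% and 3.35% in the KO libraries. With aerocyte-like cells left out, the log2 fold change of Kitl in the endothelial sums was -0.71. Lymphatic-like cells, which hold little of either gene, were 2.38% and 2.02% of named endothelial cells in Het and 11.4%, 6.87% and 9.97% in KO, and they gave 4.28% and 9.20% of all endothelial UMIs in Het and 23.6%, 7.79% and 26.4% in KO. With them left out, an alternative chosen after seeing the data, the log2 fold change of Kitl was -1.18, and with aerocyte-like cells left out as well it was -0.51. In that last set Kitl without TMM scaling was 289 and 309 CPM in Het and 229, 175 and 215 CPM in KO, still without overlap. Kit in the same sums was 173 and 141 CPM in the Het libraries and 127, 135 and 90.6 CPM in the KO libraries, a log2 fold change of -0.42 without overlap. That change depended on single libraries, being -0.26 without Het1 and -0.26 without KO3, and was -0.80 with sex as a covariate. With lymphatic-like cells left out it was -0.24, and the unscaled levels of Kit, 180.2 and 156 CPM in Het and 164, 143 and 120.1 CPM in KO, overlapped. With aerocyte-like cells left out as well, the unscaled levels of Kit did not overlap. They were 201 and 176 CPM in Het and 165, 143 and 121 CPM in KO.

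**Figure D2:**
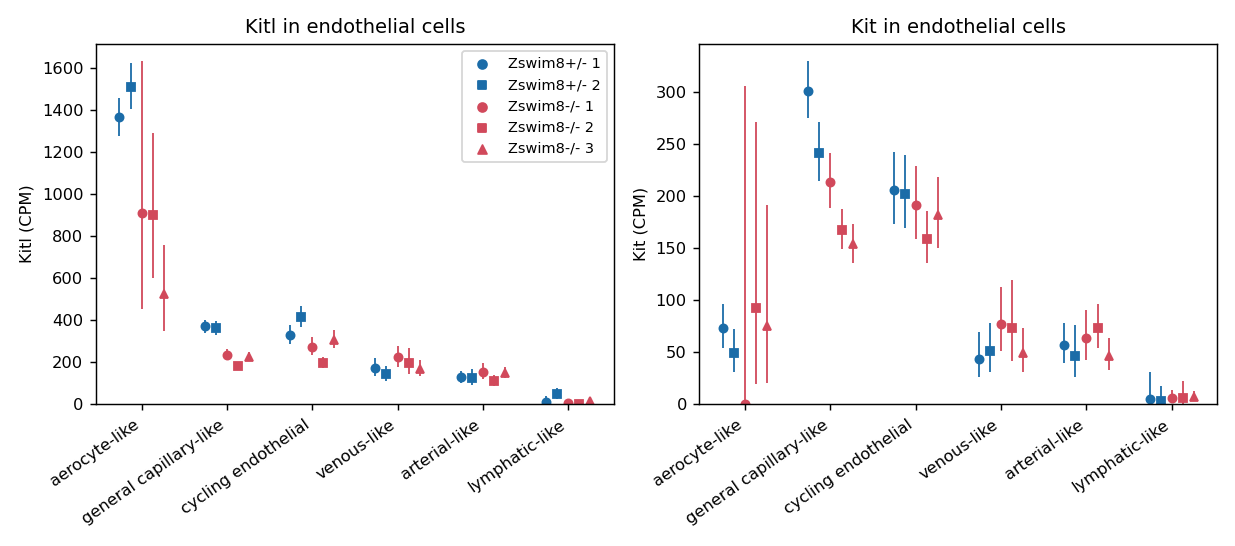
Kitl (left) and Kit (right) in 6 groups of endothelial cells, in CPM, with 1 point per library and bars for the exact 95% Poisson interval of its UMIs (counting error only). The Het points of aerocyte-like cells (1365 and 1508 CPM) stand far above every other type for Kitl, and the intervals of the KO points there are wide because they rest on 2, 4 and 6 cells.

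Within the aerocyte-like cells that remained, the level was also lower. The KO libraries gave 11, 29 and 28 Kitl UMIs and the Het libraries 896 and 740. Pooled, this was 695 CPM over 12 KO cells and 1426 CPM over 153 Het cells, a ratio of 0.488 with an exact 95% interval of 0.377 to 0.622 that covers counting error only. The summed level of the 8 aerocyte markers was 5148 and 5332 CPM in the Het libraries and 4638, 2879 and 2433 CPM in these KO cells, so the cells of KO2 and KO3 held less of the markers too. Aerocyte-like cells came from 2 clusters, and 2 of the 6 cells of KO3 came from the smaller, whose leading genes included epithelial ones. Its Kitl was 44.1 CPM in KO3, against 877 CPM in the 4 KO3 cells of the main cluster. In the main cluster alone, Kitl was 1436 and 1595 CPM in Het and 911, 925 and 877 CPM in KO, without overlap.

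General capillary-like cells were sampled evenly, with 207 and 146 cells in the Het libraries and 149, 159 and 152 in the KO libraries. On the scaled library sizes, Kitl was 377 and 358 CPM against 234, 187 and 229.9 CPM, a log2 fold change of -0.76. The groups did not overlap, as for 33% of the 9464 genes in that comparison. Kit, which was kept out of the markers that named these cells, was 307 and 239 CPM in the Het libraries and 213, 173 and 156 CPM in the KO libraries, a log2 fold change of -0.61, again without overlap. The summed level of the 7 markers of general capillary cells overlapped, at 1456 and 1549 CPM in Het and 1746, 1294 and 1483 CPM in KO. The 6 markers of the endothelial lineage, however, summed to 6501 and 6708 CPM in these cells in Het and 5441, 5015 and 5547 CPM in KO, lower in each KO library as Kitl and Kit were, and the part of this shift in the changes of Kitl and Kit was not tested. Leaving out Het1, with the higher Kit, the log2 fold change of Kit was -0.41, and that of Kitl was -0.73.

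Most of these cells lay in clusters 0 and 1 in both genotypes, while the smaller clusters 7 and 4 differed in cell number. Cluster 0 had 133 Het and 135 KO cells, and cluster 1 had 89 Het and 150 KO cells. Cluster 7, led by Glp1r, Scn7a and Scn3b, had 73 and 35 cells in the Het libraries and 5, 1 and 2 in the KO libraries. Cluster 4, led by Tmem252, Trp53i11 and Prnd, had 11 and 12 against 37, 83 and 47 cells. Cluster 7 also had the highest Kitl among the capillary clusters, 437 and 476 CPM in Het and 510.4, 391 and 590 CPM in KO, while Kit there was 443 and 299 CPM in Het and 255, 651 and 84.2 CPM in KO. Pooled over its 8 KO and 108 Het cells, the KO to Het ratio was 1.16 for Kitl (exact 95% interval 0.828 to 1.59, counting error only) and 0.615 for Kit (0.375 to 0.960). In cluster 4, Kitl was 217 and 317 CPM in Het and 167, 158 and 221 CPM in KO, and Kit was 96.6 and 122 CPM against 142, 143 and 130.1 CPM. Each KO library thus lay above both Het libraries for Kit, but the Het values rest on 23 Kit UMIs in 23 cells. The pooled ratio was 1.25 for Kit (exact 95% interval 0.812 to 2.00, which spans no change) and 0.645 for Kitl (0.486 to 0.871). With cluster 7 left out, an alternative chosen after the clusters were seen, the log2 fold changes were -0.72 for Kitl and -0.44 for Kit. In cluster 0, the largest, Kitl was 402 and 353 CPM in Het and 255, 216 and 199 CPM in KO, without overlap, and Kit was 212 and 219 CPM against 217, 157 and 154 CPM, with overlap. In cluster 1, Kit was 363 and 295 CPM against 279.7, 231 and 179 CPM, without overlap, and Kitl was 242 and 309 CPM against 217, 187 and 245 CPM, with overlap.

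**Figure D3:**
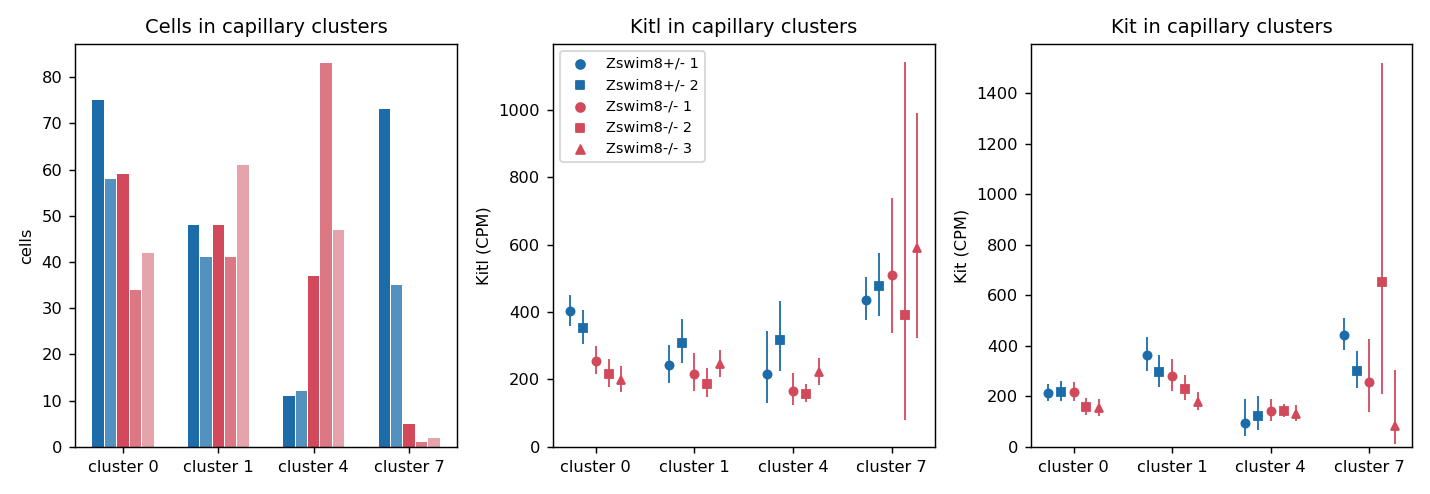
Number of cells (left), Kitl in CPM (middle) and Kit in CPM (right) in the 4 clusters of general capillary-like cells, by library, with exact 95% Poisson intervals; bars of cell numbers run from Het1 to KO3, blue for Zswim8+/- and red for Zswim8-/-, lighter for later replicates. Cluster 7 holds 73 and 35 cells of the Het libraries and at most 5 of a KO library, and in cluster 0 Kitl of the 3 KO libraries (199 to 255 CPM) lies under both Het libraries (353 and 402 CPM).

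Transcripts of ligand and receptor were found in the same general capillary-like cells. Both genes had a UMI in 65.2% and 58.2% of these cells in the Het libraries and in 41.6%, 51.6% and 55.3% in the KO libraries. Cells differ in depth, so each was also thinned to 3000 UMIs, which left out 5 and 8 Het cells and 14, 2 and 9 KO cells that were shallower. At this depth the share with both was 38.6% and 26.8% in Het and 18.52%, 16.6% and 22.4% in KO, without overlap. Kitl, with or without Kit, was then found in 59.4% and 53.6% of cells against 40.7%, 45.2% and 44.1%. Kit, with or without Kitl, was found in 58.9% and 47.1% against 36.3%, 37.6% and 45.5%. The joint share expected from these single shares was not computed, so the joint share is not read as a result apart from the levels. In monocyte-like cells, which should lack both, thinning left Kitl in 0.306% to 1.82% and Kit in 0 to 1.11% of cells (1.51% to 3.31% and 0.904% to 2.15% unthinned), and median depths were 8124 to 9377 UMIs there and 6556 to 9090 UMIs in general capillary-like cells. Aerocyte-like cells were ligand cells with little receptor: at 3000 UMIs, 96.7% and 95% of the Het cells had Kitl and 10% and 8.33% had Kit.

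Kit had its highest mean level in general capillary-like cells, followed by mast or basophil-like and cycling endothelial cells. The ranges of these types overlapped one another. The lowest cycling endothelial value, 159 CPM, lay above the highest of the next type, T, NK or innate lymphoid-like cells, 107 CPM. In cycling endothelial cells, Kit was 206 and 202 CPM in the Het libraries and 191, 159 and 182 CPM in the KO libraries, without overlap. T, NK or innate lymphoid-like cells held 107 and 99.7 CPM in the Het libraries and 97.4, 77.0 and 85.8 CPM in the KO libraries. That type is known for Kit in innate lymphoid cells, and its KO values came from 9, 24 and 36 cells. Venous-like cells had 44.0 to 77.3 CPM, arterial-like cells 46.6 to 73.4 CPM and lymphatic-like cells 3.18 to 6.77 CPM. Among the 18 types with at least 20 cells in every library, Kit of the KO libraries lay below both Het libraries in 2, above in 0 and overlapped in 16. In the summed cells, 30.4% to 46.7% of all genes did not overlap, so this count is not read as a result about Kit.

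Mast cells need Kit to survive, and basophils carry little of it in the adult. The mast or basophil-like cluster held 32 and 28 cells in the Het libraries and 12, 49 and 33 in the KO libraries. Its Kit level was 222 and 219.7 CPM against 251, 189.7 and 149 CPM, with overlap. The cluster was divided by which markers had more UMIs, Cma1, Mcpt4, Tpsb2 and Tpsab1 for mast cells or Mcpt8, Prss34 and Cd200r3 for basophils, a split made after the cluster was seen. The mast cell side held 3 and 7 Het cells and 3, 8 and 4 KO cells, with Kit at 1113 and 647 CPM in Het and 701, 605 and 447 CPM in KO. The basophil side held 29 and 20 Het cells and 9, 41 and 27 KO cells, with Kit at 38.3 and 56.2 CPM in Het and 32.4, 21.1 and 55.4 CPM in KO. Both comparisons overlapped between the genotypes, and the highest Kit of any cells named here belonged to fewer than 10 cells per library.

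In the mesenchyme, Kit lay mostly in smooth muscle-like cells, at 37.1 and 20.2 CPM in the Het libraries and 21.3, 24.7 and 26.7 CPM in the KO libraries. A cluster of these cells, of 35 and 23 Het cells and 21, 17 and 22 KO cells, held Kit at 85.5 and 34.7 CPM in Het and 71.3, 22.8 and 66.9 CPM in KO. The groups overlapped in both. Fibroblast-like, mesothelial-like, AT1-like and AT2-like cells had Kit at 0 to 4.69 CPM, against 1.15 to 2.35 CPM in red-cell barcodes. Summed over the named mesenchymal cells, Kitl was 66.2 and 64.6 CPM in Het and 80.3, 78.7 and 76.4 CPM in KO, a log2 fold change of 0.26 without overlap, as for 30.4% of the 13738 genes compared, and 0.14 with doublets kept. Alveolar fibroblast-like cells, whose own level overlapped, were 88 and 82 cells in the Het libraries and 200, 140 and 174 in the KO libraries.

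The sources of Kitl shifted with the genotype. Aerocyte-like cells gave 19.8% and 17.8% of all Kitl UMIs of kept cells in the Het libraries and 0.522%, 1.52% and 1.03% in the KO libraries. Mesothelial-like cells gave 6.08% and 8.68% in Het and 20.01%, 17.0% and 19.5% in KO. A share also rises where other shares fall. The mesothelial-like share is thus not read as a rise of Kitl in these cells, whose level overlapped between the groups. General capillary-like cells gave 12.9% and 10.6% in Het and 13.8%, 17.9% and 14.3% in KO. For Kit, general capillary-like cells were the main named source in every library, with 29.9% and 26.8% in Het and 32.8%, 32.9% and 26.7% in KO.

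Many UMIs of both genes lay in clusters that stayed unnamed. Unnamed epithelial clusters held 39.8% and 35.8% of the Kitl UMIs in the Het libraries and 6.07%, 9.77% and 14.5% in the KO libraries. Nearly all were in 2 clusters of high depth that held epithelial and endothelial markers together. In the one with AT1 and aerocyte markers, median depth was 33104 and 31727 UMIs per barcode in Het1 and Het2, and the summed endothelial markers reached 3951 and 3651 CPM beside 2074 and 1986 CPM of epithelial markers. It held 64 and 56 barcodes of the Het libraries and 0, 4 and 13 of the KO libraries. The other, led by AT2 genes, had a median depth of 51409 and 56204 UMIs in Het1 and Het2, and it held 90 and 76 barcodes of the Het libraries and 26, 40 and 54 of the KO libraries. Whether these barcodes are cells that stuck together was not tested, and they enter the whole-library sums but none of the cell type values.

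**Figure D4:**
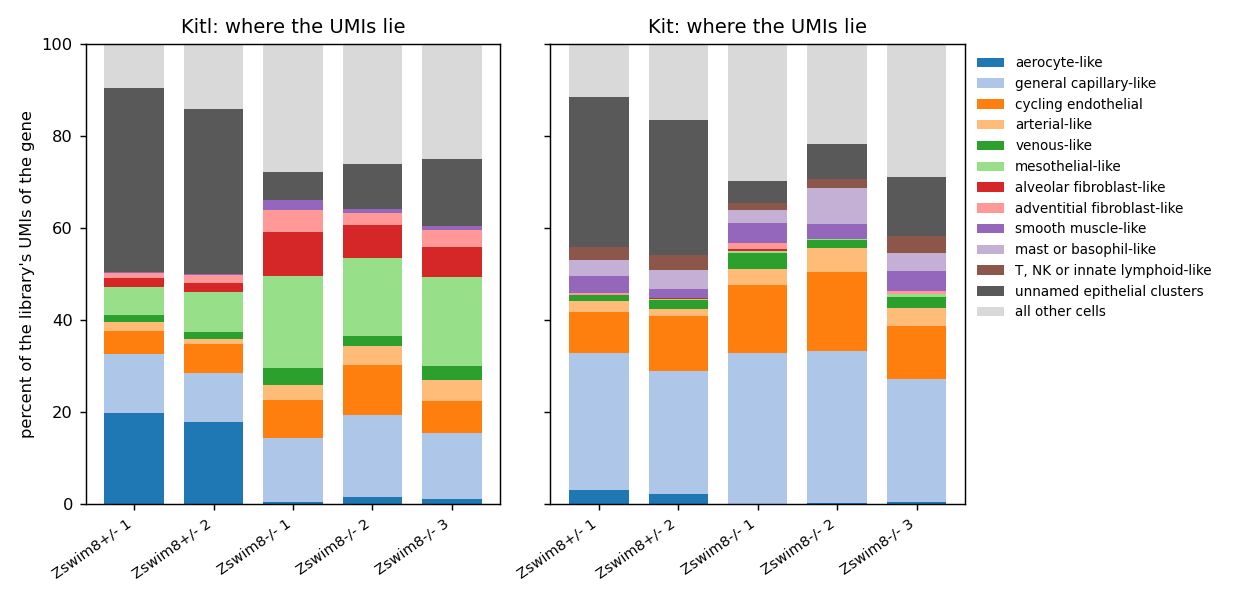
Percent of each library's Kitl (left) and Kit (right) UMIs in kept cells that lay in each cell type, by library. Aerocyte-like cells and the unnamed epithelial clusters together make up most of the Het Kitl bars and a small part of the KO bars, while general capillary-like cells hold a like share of Kit in all 5 bars.

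Over whole libraries, Kitl was 72.6 and 67.2 CPM in the Het libraries and 52.6, 36.6 and 41.0 CPM in the KO libraries, a log2 fold change of -0.69 without overlap, as for 46.7% of the 17734 genes compared. Kit was 25.5 and 17.7 CPM against 20.2, 18.4 and 14.9 CPM, which overlapped. With cells that carried markers of another lineage left out, the log2 fold change of Kitl was -0.46 (from -0.69) and that of Kit was 0.01 (from -0.28). In named immune cells, Kit was 8.89 and 8.21 CPM in Het and 5.40, 7.23 and 6.05 CPM in KO, without overlap, as for 41.7% of the 13261 genes compared. In named epithelial cells, Kitl was 13.8 and 15.96 CPM in Het and 17.7, 15.8 and 17.3 CPM in KO, with overlap, where 45.3% of the 14209 genes compared had none. The log2 fold change was 0.19, but -0.77 under the stricter cell filter, where cells were clustered and named anew. Het1 then had fewer named epithelial cells (539, from 640) but more UMIs in them (15382785, from 13304606), so other barcodes entered the sum.

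Around the receptor, 78 genes in 6 roles were followed and tested with edgeR's quasi-likelihood fit over all genes with Benjamini-Hochberg adjusted p under 0.05. In the endothelial sums, 0 of the 67 genes tested rose and 6 fell, beside 1.4% of all genes higher and 3.86% lower in KO (5.26% in either direction). The largest fall among the negative regulators was that of Dok1, an adaptor that damps signalling of tyrosine kinases, from 16.8 ± 0.33 CPM (SD, n = 2) to 6.57 ± 1.55 CPM (SD, n = 3), a log2 change of -1.33 with an adjusted p of 0.0132 by edgeR. Spred2, an inhibitor of the Ras and ERK pathway, had 17.1 and 18.51 CPM in Het and 10.501, 7.35 and 9.18 CPM in KO (log2 change -0.98, edgeR adjusted p 0.0292). Spry4, a feedback inhibitor of the same pathway, had 69.7 and 65.4 CPM against 35.8, 44.6 and 42.1 CPM (log2 change -0.72, edgeR adjusted p 0.0125).

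Of the genes of ligand shedding, Rhbdf2, which carries the sheddase Adam17 to the cell surface, fell from 23.6 and 19.4 CPM to 13.3, 11.3 and 12.4 CPM (log2 change -0.81, edgeR adjusted p 0.0373). Gata2 and Lmo2, blood and endothelial transcription factors, were the other 2 called and lay outside the naming rule, with log2 changes of -0.70 and -0.39. By edgeR, 0 of the 16 tested adaptors and kinases at the receptor and 0 of the 18 downstream kinases and factors passed the threshold, with 4 and 7 of them at an unadjusted p under 0.05. With aerocyte-like cells left out, edgeR called 0 of the network genes (14 at an unadjusted p under 0.05) and 201 of all genes, and the log2 changes were -0.82 for Dok1, -0.64 for Spred2, -0.61 for Rhbdf2 and -0.52 for Spry4. The median log2 change of the 67 genes was -0.12, and that of all genes tested was 0.00. No network gene was called by edgeR without Het1 or without Het2 (16 and 12 at an unadjusted p under 0.05), or with sex as a covariate (17), while 11 were called without KO2 and 3 without KO3.

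In general capillary-like cells, 1 of 57 network genes tested was called, beside 1.18% of all genes higher and 2.22% lower (3.4% in either direction). That gene was Gata2, a factor known to bind the Kit locus in blood cells. Its level was 86.1 and 85.8 CPM in the Het libraries and 50.4, 34.6 and 46.1 CPM in the KO libraries, a log2 change of -0.99 ± 0.17 (SE) with an adjusted p of 0.00158 by edgeR. The groups did not overlap, and with cluster 7 left out the log2 change was -0.73 and the edgeR adjusted p 0.0759. The same call was lost without Het1 and without Het2 (adjusted p 0.111 and 0.069 by edgeR) and with sex as a covariate (0.0586), with log2 changes of -0.988, -0.996 and -0.90.

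**Figure D5:**
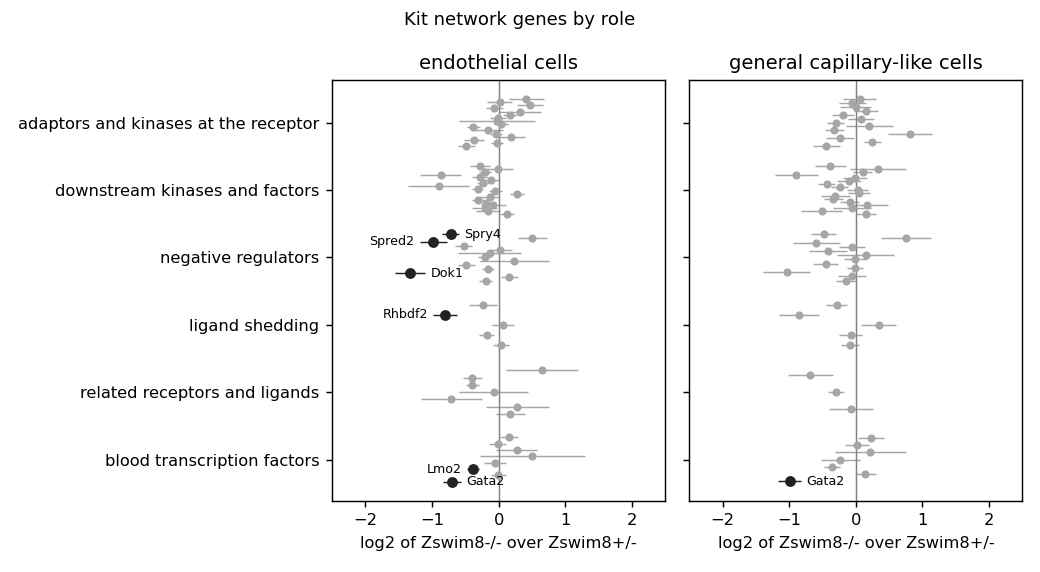
Log2 change (KO over Het, edgeR) of the network genes by role in the endothelial (left) and general capillary-like (right) sums, with bars of 1 SE; dark, labelled points have an adjusted p under 0.05. In the endothelial panel all 6 dark points lie left of 0, and in the general capillary-like panel Gata2 is the single dark point.

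In the immune sums, 5 of the 75 network genes tested rose and 6 fell, beside 3.52% of all genes higher and 4.97% lower (8.49% in either direction). Csf1r, a receptor of the same class as Kit that macrophages need, rose from 313 and 288 CPM to 530.3, 456 and 454 CPM (log2 change 0.68, edgeR adjusted p 0.00407). Mitf, a transcription factor downstream of Kit in mast cells and melanocytes, fell from 38.8 and 40.5 CPM to 26.6, 24.6 and 25.8 CPM (log2 change -0.63, edgeR adjusted p 0.00152). Spred1, Foxo3 and Lmo2 also rose, by log2 values of 0.57, 0.49 and 0.43. The proteases Mmp9 and Adam8 fell by 0.65 and 0.35 on the log2 scale. Tal1 and Dok2 were also called and lay outside the naming rule. The make-up of the immune cells moved with genotype: interstitial macrophage-like cells were 14.2% and 12.8% of the named immune cells in Het and 39.1%, 25.3% and 26.8% in KO, and alveolar macrophage-like cells were 16.9% and 18.7% in Het and 8.92%, 11.5% and 10.9% in KO. Their part in these changes was not tested. Without Het1 or Het2, edgeR called 2 network genes in each case, and with sex as a covariate it called 3. Mitf passed the threshold in all alternatives run for the immune sums.

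In the mesenchymal sums, 0 of 67 genes passed the edgeR threshold, 7 had an unadjusted p under 0.05 and DESeq2 called 2, beside 0.0218% of all genes higher and 0.0437% lower by edgeR (0.0655% in either direction). In the epithelial sums, 0 of 69 rose and 2 fell, Lyn and Adam8, beside 3.97% of all genes higher and 6.21% lower (10.2% in either direction). Lyn, a Src-family kinase that binds Kit, fell from 18.0 and 14.2 CPM to 10.2, 11.9 and 9.31 CPM (log2 change -0.62, edgeR adjusted p 0.0423). With mixed cells left out its log2 change was -0.38 and the adjusted p 0.439 by edgeR, and the call was also lost without Het1, KO1 or KO3. Adam8 lay under the 10 CPM of the naming rule. Over whole libraries, 1 of 78 rose and 2 fell, beside 1.09% of all genes higher and 2.93% lower (4.02% in either direction): Csf1r rose by a log2 value of 0.43, Mitf fell by 0.59 and Pdgfa, a ligand of the sister receptor Pdgfra, fell by 0.34 (edgeR adjusted p 0.0232, 0.0393 and 0.0498). These 3 calls were lost without Het1, without Het2 and without KO3, and with sex as a covariate.

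Over the 28 named cell types, the genes whose log2 level ran most like that of Kitl were Mcc, Mettl24, Fendrr, Tmem47 and Cdc42ep1, with Pearson correlations of 0.90, 0.90, 0.88, 0.88 and 0.87. All 5 had their highest level in aerocyte-like cells, and Fendrr, a long non-coding RNA beside Foxf1, reached 533 CPM there. The 5 most like Kit were Itga2, Gimap1, Exoc3l2, Adora2a and Gimap5, with correlations of 0.79, 0.78, 0.78, 0.77 and 0.77, and their highest levels lay in different types (Itga2, the integrin alpha 2 chain, in aerocyte-like cells, and Gimap5, a GTPase of lymphocytes, in general capillary-like cells). Kitl and Kit themselves had a correlation of 0.30. The level of a type was its mean over the libraries with at least 20 cells of it. Aerocyte-like values thus came from the Het libraries alone (2, 4 and 6 cells in KO). Lymphatic-like values came from the KO libraries alone (10 and 6 cells in Het). Genotype is therefore mixed into these correlations. Types of a library also share free RNA and depth, and the correlations describe these types only.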

How the data were processed

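The deposited counts are UMIs for each gene in each barcode. Per the file headers the authors ran Cell Ranger 4.0.0, and the submitters' processing notes name the mm10 build; the annotation they used is not given in the sources used here. A barcode was kept if it had 500 genes or more and no more than 15% of its UMIs from mitochondrial genes, and those most like simulated doublets were removed (0.8% per 1000 barcodes). Cells were clustered with scanpy 1.11.5 (2000 variable genes, 30 components, 15 neighbours, Leiden resolution 1) with Kitl and Kit left out of the clustering genes and the markers. A cluster was named "X-like" from at least 3 markers; how markers were scored for this was settled only once the clusters had been seen. Depth was 56608582 to 93708304 UMIs per library.

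Counts of named cells were summed per library and lineage, and those of all kept cells per whole library. They were fitted with edgeR 4.0.16 (quasi-likelihood, TMM, two-sided, filterByExpr) in R 4.3.3 over all genes. Kitl and Kit passed the low-count filter in every sum. DESeq2 1.42.0 was an alternative. Levels by cell type are CPM without TMM scaling. Poisson intervals (95%) cover counting error only. The scripts were tested on simulated data. The members, the gene lists and the comparisons were chosen with earlier results of these data known. Network genes were named where they passed the threshold, did not overlap between groups and reached a mean of 10 CPM in the higher group, at most 4 per direction and sum; some network genes that were called are not reported here by name. Genes of like pattern were the 5 with the highest Pearson correlation of log2(CPM + 1).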

Additional observations from a re-analysis of the deposited data

Results flagged for a closer look

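Kitl lay in opposite orders between the genotypes in different cell types, with every KO library on 1 side of both Het libraries in each of 5 types that reached 10 CPM. The log2 ratio of the KO to the Het mean level was 1.16 in smooth muscle-like cells and 1.57 in pericyte-like cells. It was -0.52 in cycling endothelial-like cells, -0.77 in general capillary-like cells and -0.13 in adventitial fibroblast-like cells. The difference between these types was not tested, and the first pair rests on 1 to 47 UMIs per library. As whole types, their Het levels lay near those of red-cell barcodes, so the ratio in pericyte-like cells does not measure a change. In smooth muscle-like cells most Kitl UMIs came from the cluster led by Cnn1, where every library lay above red-cell barcodes. The ratio of the whole type is therefore no measure of that cluster. How many of all genes separate between the groups in these types was not counted.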

How the results depend on the processing

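The log2 change of Kitl in the endothelial and general capillary-like sums kept its direction in every alternative run. In the endothelial sums it was -1.43 with sex as a covariate and -0.71 without aerocyte-like cells, and, in alternatives chosen after seeing the data, -1.18 without lymphatic-like cells and -0.51 without both types; leaving out 1 library gave -1.41 to -1.37. Kit there was -0.80 with sex as a covariate and -0.56 to -0.26 with 1 library left out. Kit in general capillary-like sums was -0.91 under the stricter cell filter (1000 genes, 10% mitochondrial) and -0.77 to -0.41 with 1 library left out. Directions that turned were those of Kit over whole libraries (0.0091 with mixed cells left out; 0.0059 without Het1, -0.51 without Het2), Kitl in epithelial sums (-0.77 under the stricter filter), Kit in epithelial sums (0.0181 without Het1, -0.34 without Het2) and Kit in mesenchymal sums (0.51 with doublets kept; 0.71 without Het1, -0.85 without Het2). Under the stricter filter the barcodes that made up the epithelial sums also changed, not only their number. The causes were not tested.

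Counts of genes called moved more. Over whole libraries, 713 became 2137 by DESeq2, 307 without mixed cells, 6 with the replicate block, 0 with sex as a covariate (2514 at an unadjusted p under 0.05) and 2 to 825 with 1 library left out; network genes, 3, became 10 by DESeq2, 1 by library size alone, 1 without mixed cells, 0 with the block, 0 with sex and 0 to 8 with 1 library left out. In endothelial sums, 612 became 1549 with no low-count filter, 173 with the block, 149 with sex, 201 without aerocyte-like cells, 244 without aerocyte-like and lymphatic-like cells and 111 to 979 with 1 library left out; network genes, 6, became 13 with no filter, 0 with the block, 0 with sex, 0 without aerocyte-like cells, 0 without aerocyte-like and lymphatic-like cells, 11 without mixed cells and 0 to 11 with 1 library left out.

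In epithelial sums, 1446 became 2529 with no filter, 164 without mixed cells, 627 under the stricter filter and 293 to 1248 with 1 library left out; network genes, 2, became 6, 0 and 4 in the same settings, 1 with doublets kept and 1 to 3 with 1 library left out. In mesenchymal sums, 9 became 135 by DESeq2, 276 with no filter, 16 with the block, 0 with sex (740 at an unadjusted p under 0.05), 34 with doublets kept, 116 without mixed cells and 0 to 114 with 1 library left out; network genes, 0, became 2 by DESeq2, 3 with no filter, 1 with doublets kept and 2 without mixed cells. In immune sums, 1126 became 1767 with no filter, 301 with sex and 214 to 1293 with 1 library left out; network genes, 11, became 3 with sex and 2 to 12 with 1 library left out. In general capillary-like sums, 322 became 206 by DESeq2, 531 with no filter, 143 with sex, 134 without cluster 7 (chosen after seeing the data) and 34 to 898 with 1 library left out; network genes, 1, became 3 with no filter, 4 with the block, 0 without cluster 7, 2 under the stricter filter, 2 at sub-cluster resolution 2 and 0 to 7 with 1 library left out.

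The replicate numbers come from the labels, which name no pairing of embryos. Deviations of Het1 and KO1 had a correlation of -0.04 over 11348 genes and those of Het2 and KO2 of -0.17. With 2 Het libraries, the deviations of Het1 and Het2 are mirror images. Het2 and KO1 thus gave 0.04, and Het1 and KO2 gave 0.17. These correlations therefore cannot decide whether the block pairs embryos. Both female embryos are KO, so sex and genotype are partly confounded. Few aerocyte-like KO cells, 2 to 6 per library, limit the values within that type.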
